A study of Mus musculus with 18 samples.

Results

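H3K4me3, the trimethylation of lysine 4 on histone H3 that marks active and poised promoters, was examined at 6 genes of the islet transcription factor network: Pax6, Isl1, Nkx2-2, Foxa2, Neurod1 and Insm1. The members were all peaks that overlapped fixed windows of 25 to 50 kb around these genes in the mouse build mm9. The rule found 12 of 21905 peaks in the control list and 11 of 21434 peaks in the knockout list. The windows were set by gene position and not by a measured value, but the genes were picked with earlier results of these data known.

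Both lists came from ChIP-seq of pancreatic islets of 2-month-old mice whose background was mixed from the strains C57BL/6, 129s6 and FVB/N. Control mice carried RIP-Cre, the Cre recombinase under the rat insulin promoter, which is active in beta cells. The other group had an islet-specific knockout of Men1, for which the labels give neither the allele nor the Cre driver. Each genotype had 1 H3K4me3 library, made with the same lot of antibody, and 16 of the 18 samples of the series (input, H3K27me3 and the later ages) were not analysed here. No source used here says how many of the islet cells lacked Men1 or whether animals were pooled. Since there was 1 library per genotype, no p-value was computed, and each difference below is one between this pair of libraries.

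Menin, the product of Men1, is a subunit of histone methyltransferase complexes of the MLL family, which methylate lysine 4 of histone H3. At most active promoters the mark spans a narrow block around the start of transcription. A small class of very broad H3K4me3 domains is known to lie at genes that define the identity of a cell. In the endocrine pancreas the network studied here works in layers. Foxa2 is a pioneer factor that opens chromatin in foregut endoderm and islets. Neurod1 and Insm1 act downstream of the endocrine progenitor stage, and Nkx2-2, Pax6 and Isl1 are homeodomain factors needed to form and maintain hormone-producing cells.

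H3K4me3 commonly covers CpG-rich promoters, so the promoter sequences of the genes are shown with CpG dinucleotides in capitals. The windows are the 250 bases upstream of an annotated start, from RefSeq on GRCm38.p6, which is another build than that of the peaks. They were therefore not placed on the peaks. Of the 6 genes, 5 matched the table, with 8 windows in all: Pax6, Nkx2-2, Isl1, Foxa2 and Neurod1. The first 2 sequences below belong to the genes whose main peak was broken up in the knockout list, the others to Nkx2-2, which had a longer domain there, and to Pax6, which had the longest domain of all.
Isl1 (GRCm38.p6 chr13:116309689-116309938, minus strand): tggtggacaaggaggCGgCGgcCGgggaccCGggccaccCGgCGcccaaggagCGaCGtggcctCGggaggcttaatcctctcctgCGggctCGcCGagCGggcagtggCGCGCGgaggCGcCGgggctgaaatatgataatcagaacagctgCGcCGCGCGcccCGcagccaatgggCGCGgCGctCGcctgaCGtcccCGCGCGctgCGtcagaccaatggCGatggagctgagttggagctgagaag
Foxa2 (outermost start, GRCm38.p6 chr2:148046970-148047219, minus strand): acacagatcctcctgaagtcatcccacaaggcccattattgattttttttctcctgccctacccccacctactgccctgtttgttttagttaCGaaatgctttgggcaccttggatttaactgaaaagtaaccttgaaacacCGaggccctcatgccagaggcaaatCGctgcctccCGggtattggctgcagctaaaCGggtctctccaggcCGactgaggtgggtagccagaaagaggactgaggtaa
Nkx2-2 (GRCm38.p6 chr2:147186403-147186652, minus strand): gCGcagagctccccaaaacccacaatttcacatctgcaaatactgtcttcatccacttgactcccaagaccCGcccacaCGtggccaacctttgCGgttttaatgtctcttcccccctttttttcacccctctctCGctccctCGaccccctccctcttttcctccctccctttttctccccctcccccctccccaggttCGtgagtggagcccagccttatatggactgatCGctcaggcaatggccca
Pax6 (outermost start, GRCm38.p6 chr2:105668646-105668895, plus strand): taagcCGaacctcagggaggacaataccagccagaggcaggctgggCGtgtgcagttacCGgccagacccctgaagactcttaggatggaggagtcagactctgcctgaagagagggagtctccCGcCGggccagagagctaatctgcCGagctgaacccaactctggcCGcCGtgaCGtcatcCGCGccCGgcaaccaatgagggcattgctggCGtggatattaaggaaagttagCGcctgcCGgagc

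The promoters were unlike one another in CpG content. Over 32841 promoter windows of all genes the median was 6 CpG in 250 bases. The Isl1 window held 33, more than 96.0% of all windows, and the Neurod1 window held 22. The outermost start of Pax6 had 15 CpG. Nkx2-2 had 8, close to the median of all genes. Foxa2 ranged from 6 at its outermost start to 20 at the second of its 3 starts. Since the windows were not placed on the peaks, the CpG content of the domains themselves was not measured. Whether it goes with domain length was not tested. The letters CCAAT, searched on both strands, were in 3 of the 8 windows (33.9% of all promoters), GGGCGG in 4 (32.7%), TATAAA in 1 (12.4%) and TAATTA in 0 (4.84%). Such matches describe letters in this short window only.

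Each gene had a broad domain in both lists. Since the genes were picked with earlier results of these data known, this describes the choice and does not test it. The widest peak of each locus was among the widest 5% of its list in 6 of 6 cases in control and in 6 of 6 in knockout islets. All 6 widest peaks in each list had a score of 3100, the authors' value per peak. That score is shared by 8823 control and 6834 knockout peaks, so it does not rank the loci. The widest peaks measured 5112 to 21936 bp in the control list and 5230 to 22264 bp in the knockout list. By width the order was Pax6, Isl1, Nkx2-2, Foxa2, Neurod1 and Insm1 in control islets. In the knockout list Nkx2-2 stood before Isl1, and Foxa2 came last, with 5230 bp against 5251 bp at Insm1. This order is of single peaks. With all knockout peaks over the same ground summed, Isl1 (16083 bp) stayed before Nkx2-2 (14869 bp). Foxa2 (6858 bp) then stayed before Neurod1 (5613 bp) and Insm1 (5251 bp). Of the 6 loci, 5 are on chromosome 2. There Insm1, Nkx2-2 and Foxa2 followed each other at 955 and 842 kb, while Pax6 lay 40.52 Mb from Insm1 and 26.21 Mb from Neurod1.

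**Figure D1:**
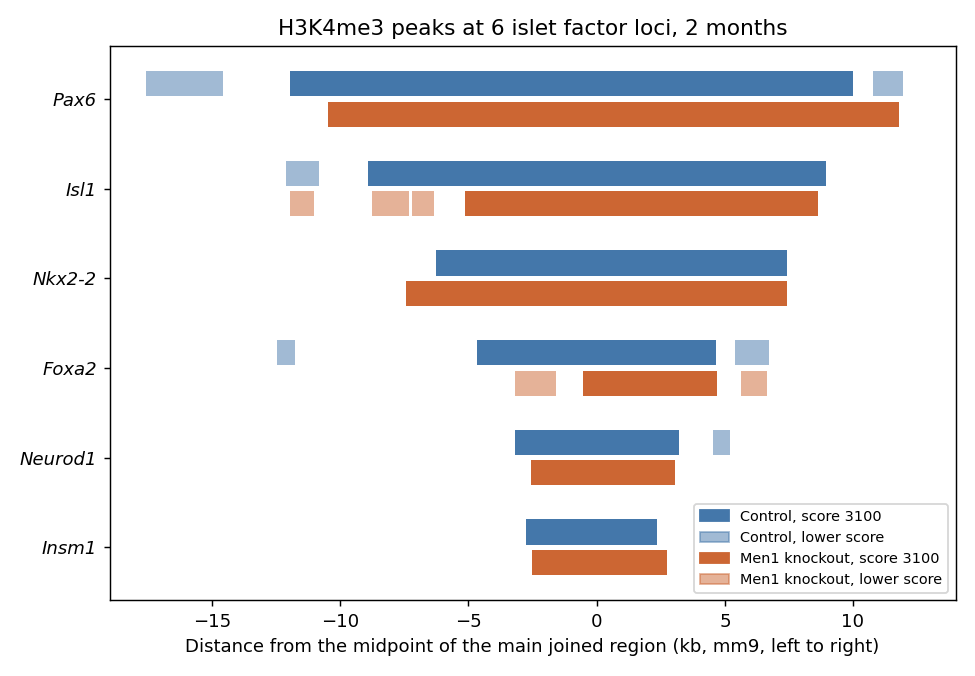
Called H3K4me3 peaks at each locus, as distance in kb from the midpoint of the main region (x axis), with control above and Men1 knockout below for each gene and paler bars for peaks scoring under 3100. The knockout bars at Isl1 and Foxa2 are broken on the left, and the leftmost Pax6 bar is in the control row alone.

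Summed over the 6 loci, peaks covered 82.5 kb in control and 72.9 kb in Men1 knockout islets. The knockout length was 88.4% of control, against 90.1% for the whole lists. Covered length was lower in the knockout list at 4 loci (Foxa2, Neurod1, Pax6 and Isl1) and higher at 2 (Nkx2-2 and Insm1). Peaks of both lists that overlapped were joined into 18970 regions marked in both genotypes, and the main region of a locus was the longest of these. By main region the counts were also 4 lower and 2 higher. Among all joined regions 73.8% were shorter in the knockout list, and among the broadest 5% (949 regions of 3904 bp or more) 69.7% were. Of the 50 longest regions 50.0% were. The count of 4 in 6 is near these shares. The log2 ratio of knockout to control length had a median of -0.10 over the 6 main regions, -0.11 over all regions (95% interval -0.116 to -0.110) and -0.06 over the broadest 5% (interval -0.067 to -0.048). When the smaller peaks of each window were counted too, the median over the loci was -0.20, with an SD of 0.24 between loci.

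**Figure D2:**
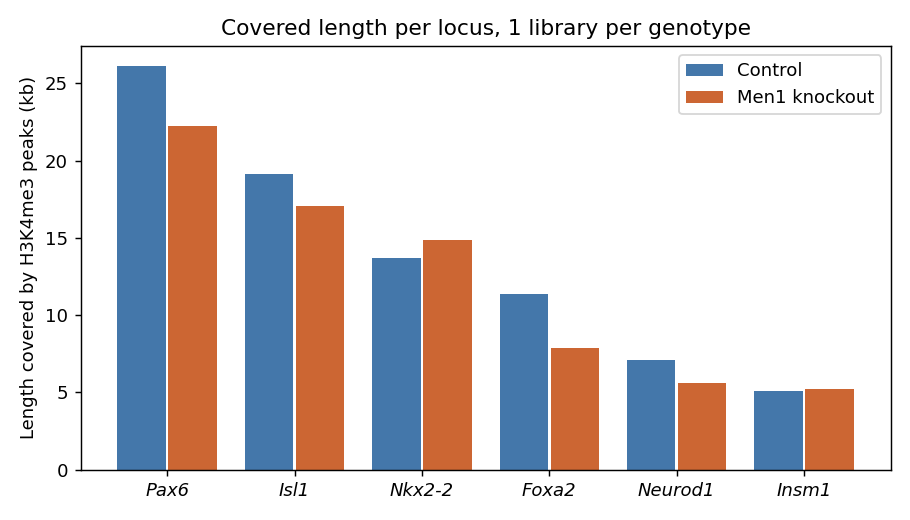
Length covered by H3K4me3 peaks (y axis, kb) in the window of each gene (x axis), 1 bar per library. Foxa2 shows the greatest relative difference (11372 bp against 7869 bp), and Nkx2-2 and Insm1 are slightly longer in the knockout list.

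Foxa2, the pioneer factor, had the greatest relative difference in called length of the group. This ranking depends on how gaps are treated. With peaks within 3 kb merged, the log2 ratio was -0.30 at Foxa2, -0.58 at Neurod1 and -0.41 at Pax6. In control islets a single peak of 9355 bp covered chr2:147863868-147873222, with a narrower peak of 1310 bp on its right (score 787.23) and a peak of 707 bp further left (score 91.33). In knockout islets the same ground held a peak of 5230 bp (chr2:147868002-147873231), a separate peak of 1628 bp on its left (score 324.12) and a right-hand peak of 1011 bp (score 334.24). The right border of the main peak differed by only 9 bp between the lists. Its left border was 4134 bp further in, which is 44.2% of the control width.

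The main Foxa2 region thus measured 9355 bp in control and only 6858 bp in Men1 knockout islets, a log2 ratio of -0.45. It was the only main region of the group at least 20% shorter in the knockout list, as were 6.32% of the broadest regions, 6.00% of the 50 longest and 18.1% of all regions. Only 32 of the 949 broadest regions had a lower ratio. Between the separate knockout peaks there was a gap of 1026 bp. The widest peak ranked 16 of the control list and 203 of the knockout list, which are descriptions within lists of unequal length. The knockout rank was 84 with peaks within 1 kb merged and 68 among joined regions by covered length. RefSeq places Foxa2 on the minus strand, so that the left side is the downstream side of the gene. The next gene on that side in GRCm38 is 9030622O22Rik, a long noncoding RNA, but which transcripts the stretch marked in control alone touches was not determined in mm9. The 707 bp peak had no knockout counterpart, and the nearest knockout peak lay 8566 bp away. With the outlying peaks counted, the log2 ratio of the locus was -0.53. The joined regions next to Foxa2 in length, also on chromosome 2, had ratios of -0.20 (143369984 to 143378662) and 0.05 (113834474 to 113842814).

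Neurod1 encodes a basic helix-loop-helix factor that activates the insulin gene. Its control peak spanned 6397 bp (chr2:79291239-79297635) and its knockout peak 5613 bp (chr2:79291880-79297492), or 87.7% of the control width. Both borders lay further in, by 641 bp (left) and 143 bp (right). Both outer borders lay further in at 3 of the 6 main regions and at 46.5% of the broadest regions. The main region had a log2 ratio of -0.19, and 156 of the broadest regions were lower. Its neighbours in the order of length, on chromosome 19 (10459577 to 10465855) and chromosome 12 (30210751 to 30216978), had ratios of -0.03 and 0.11. A second control peak of 675 bp, at a score of 61.37 that is barely above the lowest in the list, stood to the right with no knockout partner. Counting it, the covered length was 7072 bp against 5613 bp in the knockout list, a log2 ratio of -0.33. The step from -0.19 to -0.33 came from that 1 weak peak.

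Insm1 encodes a zinc-finger factor of endocrine differentiation and had the shortest main region of the group. The control peak was 5112 bp (chr2:146046536-146051647) and the knockout peak 5251 bp (chr2:146046775-146052025). Both called borders lay more to the right in the knockout list, the left one 239 bp further in and the right one 378 bp further out. Over the broadest 5% of regions such shifts had an SD of 449 bp (left) and 404 bp (right). The log2 ratio was 0.04, and 189 of the 949 broadest regions were higher. Neighbours in the order of length were much the same. The region just above, on chromosome 8 (41947079 to 41952413), covered 5256 bp in control against 5117 bp in knockout islets, and the region just below, on chromosome 1 (72579416 to 72584724), 5107 and 5249 bp.

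Nkx2-2, a homeodomain repressor and activator that keeps beta cells from taking other endocrine fates, was the locus with the greatest excess of called length in the knockout list. A single peak was called in each list, of 13690 bp in control islets (chr2:147008016-147021705) and 14869 bp in knockout islets (chr2:147006831-147021699). The right borders differed by 6 bp. All of the difference came from the left, where the knockout peak reached 1185 bp further out. The log2 ratio of 0.12 was exceeded by 71 of the 949 broadest regions, and 30.2% of the broadest regions were longer in the knockout list. The size was modest, since no main region of the group was at least 25% longer there (0.527% of the broadest regions were). The joined region ranked 4 of 18970 by mean covered length. The regions around it in that order had smaller ratios, -0.02 on chromosome 18 (83078391 to 83093336) and 0.04 on chromosome 5 (123581789 to 123595655).

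Pax6, a paired-box and homeodomain factor that activates hormone genes in several islet cell types, carried the widest H3K4me3 peak of either list. The widest control peak was 21936 bp (chr2:105505041-105526976). It was followed after a gap of 786 bp by a peak of 1183 bp with a score of 124.29. In the knockout list 1 peak of 22264 bp (chr2:105506519-105528782) bridged that gap. The main region had a log2 ratio of -0.05, with 23119 bp (control) against 22264 bp (knockout), near the middle of the broadest regions (482 lower and 466 higher). Its left border was 1478 bp further in and its right outer border 163 bp further in. Fewer knockout than control peaks, as here, were called at 1 of the 6 main regions and at 3.90% of the broadest regions.

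A separate H3K4me3 peak near Pax6 was present in the control list alone. It spanned 2995 bp (chr2:105499427-105502421), scored 1443.19, and lay 2619 bp to the left of the broad control peak. No knockout peak overlapped it, and the nearest began 4097 bp away. Among the 2775 control peaks without a knockout partner it ranked 3 by score and 3 by width. Their medians were a score of 98.4 and a width of 805 bp. In the whole control list 54.8% of peaks scored higher than it and 13.9% were wider. Pax6 is on the plus strand, so this peak lies on the upstream side of its domain. The next gene upstream in the order of GRCm38 is Paupar, a long noncoding RNA, and whether the peak lies at its start was not determined. With this peak counted, the locus had 26114 bp in control islets and 22264 bp in the knockout, a log2 ratio of -0.23. The sign of the difference at Pax6 therefore rests on the parts outside the widest peak, which by itself was 101% of its control width.

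Isl1 encodes a LIM-homeodomain factor of maturing endocrine cells, and its domain was the second longest. The control list had 1 peak of 17858 bp (chr13:117086937-117104794). The knockout list had 3 over the same ground, of 1466 bp (score 323.39), 834 bp (score 63.91) and 13783 bp (chr13:117090716-117104498, score 3100). The gaps between them were 127 and 1205 bp. The outer borders differed little, by 147 bp (left) and 296 bp (right). The left border of the widest peak, in contrast, was 3779 bp further in, or 21.2% of the control width. Covered length in the main region was 17858 bp for control against 16083 bp for knockout, a log2 ratio of -0.15, and 226 of the broadest regions were lower. A small peak further left was called in both lists, 1275 bp wide in control (score 445.30) and 950 bp wide in the knockout (score 176.82). RefSeq has Isl1 on the minus strand, so the broken part is on the downstream side, as at Foxa2. Nkx2-2 and Neurod1 are on the minus strand too. On that same side the knockout border lay 1185 bp further out at Nkx2-2 and 641 bp further in at Neurod1. How often other regions were broken on the downstream side was not determined.

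**Figure D3:**
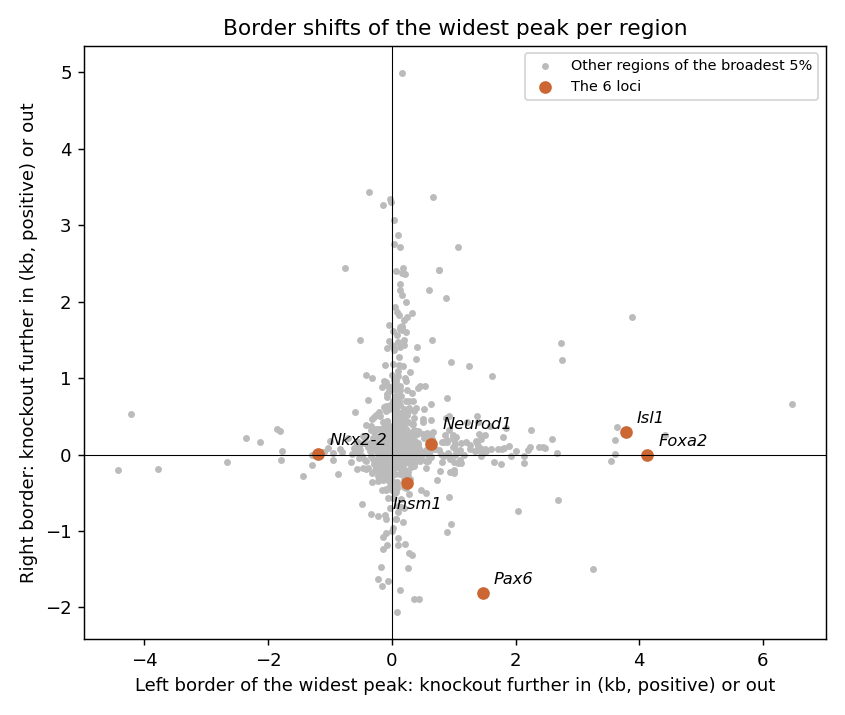
Shift of the left (x axis) and right (y axis) border of the widest peak per region, in kb, with positive values where the knockout border lies further in. Each point is one of the 949 broadest regions. Isl1 (3779 bp) and Foxa2 (4134 bp) lie far to the right near a vertical shift of 0, Nkx2-2 lies on the left, and Pax6 lies below 0 because its widest peak reaches further right in the knockout list (1806 bp).

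The knockout domain was broken on its left side at Isl1 and Foxa2, while at Pax6 it was the control domain that was broken, on its right side. More knockout than control peaks were called in 2 of the 6 main regions, in 14.4% of the broadest regions and in 2.73% of all regions. The widest knockout peak was inset by 3 kb or more on 1 side at 2 of 6 loci and at 1.79% of the broadest regions. Longer domains have more room for such an inset, and 4 of the 6 main regions were among the 50 longest of all. Of those 50, the same inset was found in 12.0% (exact 95% interval 4.53 to 24.3) and more knockout peaks in 18.0%. Measured as 20% or more of the control width, insets were found at 2 of 6 loci, at 16.0% of the 50 longest, at 14.3% of the broadest 5% and at 14.7% of all regions. Between the widest peaks alone the log2 ratio was -0.84 at Foxa2 and -0.37 at Isl1, and with peaks within 3 kb merged, so that the gaps count as covered, it was -0.30 and -0.03. A gap in a peak list says that the caller's threshold was not met, not that the mark was absent. Depth is unknown for both libraries, and its part in these breaks was not tested.

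**Figure D4:**
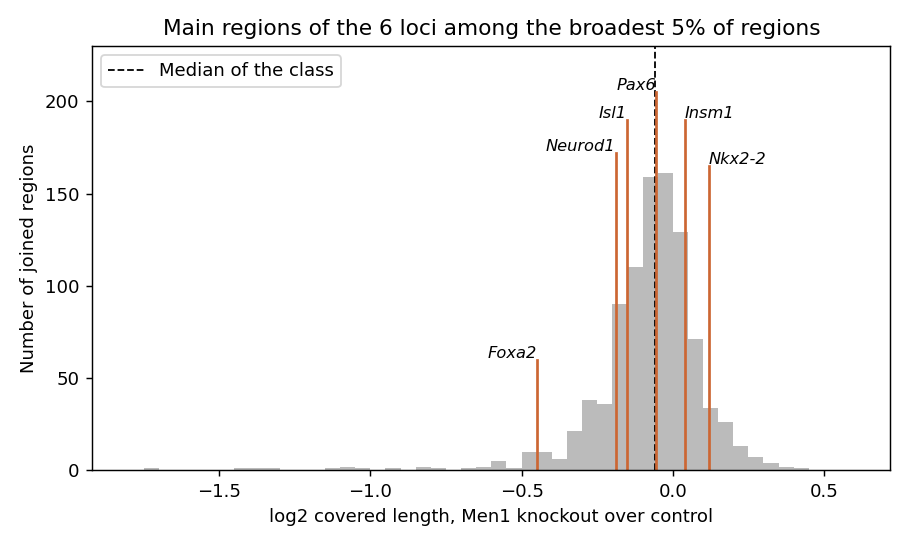
Distribution of the log2 ratio of covered length, Men1 knockout over control (x axis), over the 949 broadest joined regions (y axis, number of regions), with the main region of each locus as a coloured line and the median of the class, -0.06, dashed. Foxa2, at -0.45, lies in the lower tail, and the other loci lie between -0.19 and 0.12.

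Peaks called around the domains in 1 list alone were all in the control list. Of the 12 control peaks in the windows, 3 had no knockout partner (near Pax6, Foxa2 and Neurod1), against 12.7% of the control list. Of the 11 knockout peaks, 0 had no control partner, against 8.71% of the knockout list. A control-only peak lay within 10 kb of the main region at 3 of 6 loci, and of 12.3% of the broadest regions. For knockout-only peaks these values were 0 of 6 and 7.17%. The Pax6 peak scored high among control-only peaks, although 54.8% of the whole control list scored higher. The Foxa2 and Neurod1 peaks scored under the median of control-only peaks.

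Weak peaks beyond the windows were also compared. The nearest peak beyond each window was taken on both sides, 12 per list. Of the 12 in control islets, 6 had no knockout partner, at Pax6, Isl1, Insm1 and Foxa2, and they were narrow (503 to 849 bp) and of low score (61.22 to 162.17). This is above the 12.7% of the whole control list, but 10 of the 12 scored under 200, a limit chosen after seeing the values, and 51.5% of all control peaks under that score had no partner either. Each of the 12 in knockout islets had a control partner, where 8.71% of the knockout list had none. The knockout Pax6 domain stood alone over 265 kb on the left and 215 kb on the right, whereas weak control peaks were called at 47.9 and 39.7 kb. On the left of Isl1 the nearest knockout peak was 949 kb away, and the nearest control peak 94.8 kb away.

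Within 500 kb on both sides, the windows left out, covered length was lower in knockout islets around 5 of 6 loci. For the broadest regions a related measure was taken, within 500 kb of the region's edges and with only its own peaks left out. It was lower in knockout islets around 92.0% of 935 such regions, so that a lower value is the usual case. With the windows left out, covered length around Neurod1 was 11813 bp in control against 7882 bp in knockout islets (log2 ratio -0.58). Around Insm1 it was 16232 and 11290 bp (-0.52). The ratios were -0.44 around Isl1, -0.37 around Foxa2 and -0.20 around Pax6. Around Nkx2-2 the flanks had 10249 bp in control against 10660 bp in knockout islets (0.06), so that locus and flanks were both slightly longer there. Each flank held only 4 to 11 peaks per list, and 1 peak can set such a ratio. With all peaks outside the main region counted as its surroundings, the ratio was higher in the domain than around it at 5 of 6 loci. The same was found for 75.2% of the broadest regions, so that this order is common in the class. At Foxa2, the remaining locus, both ratios were -0.45 when rounded.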

How the data were processed

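H3K4me3 ChIP-seq peak lists of pancreatic islets were used, 1 library for RIP-Cre control and 1 for Men1 knockout mice at 2 months. Per the submitters' processing notes, Bowtie, MACS 1.4.2 and mm9 were used. Use of the input, filters and pooling: not given in the sources used here. In the deposited lists a peak has 2 borders and a score (the authors' value, on a scale the files do not state) without counts, so depth is unknown. Lists were matched to samples by genotype, age and mark in their names, which also carry an unexplained word, "2nd". 0 per-sample columns were left unused.

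Whole peaks overlapping a window by 1 bp or more were summed per list with Python 3.11.15. Overlapping peaks of both lists were joined into regions. A region counted as called when 20% or more shorter, or 25% or more longer, in the knockout list, with no test. Intervals are 95% (order statistics for medians, exact binomial for shares) and treat regions as independent. On simulated data made from 21905 control peaks, 200 of 200 left trims, 200 of 200 splits and 200 of 200 removed peaks were recovered. These changes were made to wide peaks without noise or a change of depth. The run therefore checks the computation, and not whether real differences between libraries can be detected. All 6 genes were described, with the regions directly above and below in length. Members and lists were chosen with earlier results of these data known. Men1 itself, other islet factors and cell type markers were not analysed here, since the gene table used (GRCm38) is of another build. It served for gene names and order.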

Additional observations from a re-analysis of the deposited data

How the results depend on the processing

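The median log2 length ratio over the 6 loci stayed below 0 under each alternative run. It went from -0.22 (windows widened by 25 kb) to -0.08 (peaks at or above the median score of their list, or the widest peak alone). With 1 locus left out it went from -0.23 to -0.17. A value below 0 is the usual case, since 73.8% of all regions and 69.7% of the broadest 5% were shorter in the knockout list. Their median ratios, -0.11 and -0.06, were not recomputed under these alternatives. Foxa2, Neurod1 and Isl1 stayed below 0 in all 10 alternatives. Nkx2-2 and Insm1 stayed at 0.12 and 0.04, but each had 1 peak per list, with a score of 3100. No other peak fell within their widened windows. The alternatives could therefore not change their ratios. At Insm1 a control peak of 849 bp without a knockout partner began just beyond the widened window, at 146085640. A slightly wider window would have counted it. Foxa2 ranged from -0.84 (widest peak alone) to -0.30 (peaks within 3 kb merged, which closes its gap), and Isl1 from -0.37 to -0.03. Neurod1 ranged from -0.58 (merged within 3 kb) to -0.19. Its -0.58 rests on the weak control peak of 675 bp, since merging also counts the 1329 bp gap before that peak as covered. The runs without that peak gave -0.19. Pax6 reversed to 0.02 with the widest peak alone and with peaks at or above the median score. Both smaller control peaks are then left out (with only the main region it was -0.05). Its lowest value was -0.41, merged within 3 kb, where Pax6 and Neurod1 were both lower than Foxa2. The number of peaks was 7 in control and 6 in knockout islets after merging within 3 kb, and 6 in each at or above the median score. With the edges of the widest peaks the median right border shift went from 74 bp inward to -2 bp, and the left from 440 to 1060 bp. The median log2 ratio of the broad class was -0.041 for the broadest 2% and -0.070 for the broadest 10%. Alternatives on merging within 3 kb for lengths, the main region alone and the 50 longest regions were added after seeing the data. In all, 129 of 151 recomputed values stayed close (within 1.5 times for counts and ranks, 1 SD or the 95% interval otherwise). For the median over the loci that SD was the 0.24 between loci, more than its distance from 0, so that -0.08 counted as close. So did the left border shift of 1060 bp against 440 bp. The ratios of Nkx2-2 and Insm1, which could not change, are also among the 129, so the tally is a loose one. No paired analysis was possible because the lists come from 1 library each.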
